A study of Mus musculus with 8 samples.

Results

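The LIF receptor and STAT3 pathway was followed in mouse embryonic stem (mES) cells with and without Trim71 through 8 transcripts, Lifr, Il6st, Jak1, Jak2, Stat3, Socs3, Pim1 and Pim3. The members were taken by gene symbol, and all 8 had a row among the 13558 transcripts of the expression table. Messenger RNA sequencing of 8 libraries was compared, 4 of Trim71 knockout cells (KO, genotype labelled Trim-/-) and 4 of conditional cells (WT, labelled Trimfl/fl). Trim71 is a stem cell protein of the TRIM-NHL family that binds and represses messenger RNAs.

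Both groups came from male C57BL/6 mES cells whose donor mice carried the floxed Trim71 allele on both chromosomes together with Rosa26-CreERT2, a tamoxifen-inducible recombinase expressed from a ubiquitous locus. WT cells therefore carried the floxed allele and the recombinase as well. KO cells received 500 nM 4-hydroxytamoxifen for 2 days and were kept in culture for at least 7 days more, as the labels give it. The study's methods, which describe these cells more generally, give a lower dose and a shorter culture, and name DMSO as the vehicle for controls. All cells grew in serum with LIF, the ligand of the pathway, which the methods describe as supernatant of L929 cells in medium conditioned by embryonic fibroblasts, and cells with the surface antigen SSEA-1 were selected before harvest. The groups thus compare the pathway under continuous stimulation by LIF. The libraries represent 2 clones, E3 with 3 KO and 2 WT libraries and clone 1 with 1 KO and 2 WT libraries. Their labels also give a day, and days 3, 4 and 5 each hold 1 KO and 1 WT library of the same clone. KO replicates 1 to 4 carry days 2, 3, 4 and 5, and WT replicates 1 to 4 days 1, 3, 4 and 5. Nothing in the labels says that libraries are separate cultures, so the p-values measure the spread between these samples, which may be technical.

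LIF binds its receptor chain Lifr, which pairs with gp130, the product of Il6st, a chain shared by the interleukin-6 family of cytokines. The associated kinases Jak1 and Jak2 phosphorylate Stat3, which enters the nucleus and activates genes such as Socs3, an inhibitor that binds the receptor complex and dampens the signal, and the serine/threonine kinases Pim1 and Pim3. In mES cells this route maintains self-renewal in serum, and Socs3 transcript is a common readout of its activity. Phosphorylation of Stat3 was not measured, and in bulk RNA a change in the amount of transcript per cell cannot be told apart from a change in the share of cells that express it.

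Values are normalized read counts after a batch correction by the authors, which the values show to be a shift between the clones and which is called the clone correction here. Fold changes are differences of log2(count + 1) between KO and WT from a limma fit across all transcripts with clone as a second factor. From 6817454 to 25383624 reads per library could be recovered from the values, and each member had at least 61 reads in every library. Trim71 held 500, 793, 733 and 247 normalized counts in the KO libraries against 2782, 2736, 1988 and 2584 in the WT libraries, so the targeted gene followed the labels. By the study's methods only the last exon was floxed, and the value covers the whole gene. Markers of mES cells were all in the table, with summed counts of 63286 to 84857 in KO and 58569 to 76175 in WT, and 0 of 8 had an unadjusted p under 0.05. Of fibroblast markers, 5 of 9 were in the table and summed to 152 to 262 in KO and 109 to 205 in WT. Col3a1, Postn, Dcn and Lum had no row, and 1 marker, Twist1, had a p under 0.05. Primitive endoderm markers, 7 of 7 in the table, summed to 3342 to 5395 in KO and 1867 to 3939 in WT with 0 under 0.05. Most of this sum was Lama1, at 3008 to 4818 in KO and 1776 to 3475 in WT. Log2 differences were 1.79 for Gata6, 1.41 for Gata4, 1.34 for Sox17, 0.74 for Sox7 and 0.58 for Lama1. For Pdgfra and Dab2 they were -0.48 and -0.34. The lowest WT values were 1 for Gata6 and Sox17 and 1.72 for Gata4. Primed epiblast markers (4 of 5, without Fgf5) summed to 2996 to 5396 in KO and 1908 to 6249 in WT, again with 0 under 0.05. Those of macrophages and blood summed to 474 to 532 in KO and 251 to 574 in WT, also with 0 under 0.05. Of their 6 listed symbols 3 were in the table, and the absent Adgre1 and Emr1 are names of the same gene. Most of the primed epiblast sum was Dnmt3b, at 2830 to 5149 in KO and 1756 to 5879 in WT. The part of any of these cell types in the results was not tested.

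Libraries also differed in the level of long transcripts. Transcripts of at least 8000 bases (565 with a mean count of at least 50) were measured against their mean over the 8 libraries, and the median log2 difference was -0.16, 0.05, -0.24 and -0.03 in the KO libraries, by replicate number, against 0.17, 0.16, 0.15 and 0.05 in the WT libraries. For transcripts of at most 3000 bases (4979) the medians were 0.02 to 0.09 in KO and -0.05 to -0.01 in WT. KO replicate 3 was lowest for long transcripts. Because the members run from 2427 bases (Pim3) to 9655 bases (Lifr), each was also fitted after a trend on transcript length and GC content had been removed from every library, an alternative chosen after seeing the data. The medians of short transcripts did not overlap between the genotypes, and those of long transcripts did. Removal of the trend can therefore also remove a difference between genotypes, and the source of the trend was not tested.

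In WT cells, the products of pathway activity were more abundant than the components that transmit the signal. Per kilobase of transcript, Socs3 stood at 780 ± 110 normalized counts (SD, n = 4), Pim1 at 708 ± 101 and Pim3 at 697 ± 162, at percentiles 88.1 to 89.7 of all transcripts with a known length. These 3 differed by less than their spread. Jak1 (255 ± 36.7) and Stat3 (243 ± 26.7) did so as well, and Il6st (191 ± 9.73) and Lifr (149 ± 18.3) followed. Jak2 was lowest at 38.8 ± 15.1 normalized counts per kilobase, at percentile 28.6. In KO cells Socs3 was again first, at 1115 ± 95.2 per kilobase, followed by Pim3 at 949 ± 315 and Pim1 at 503 ± 117.

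**Figure D1:**
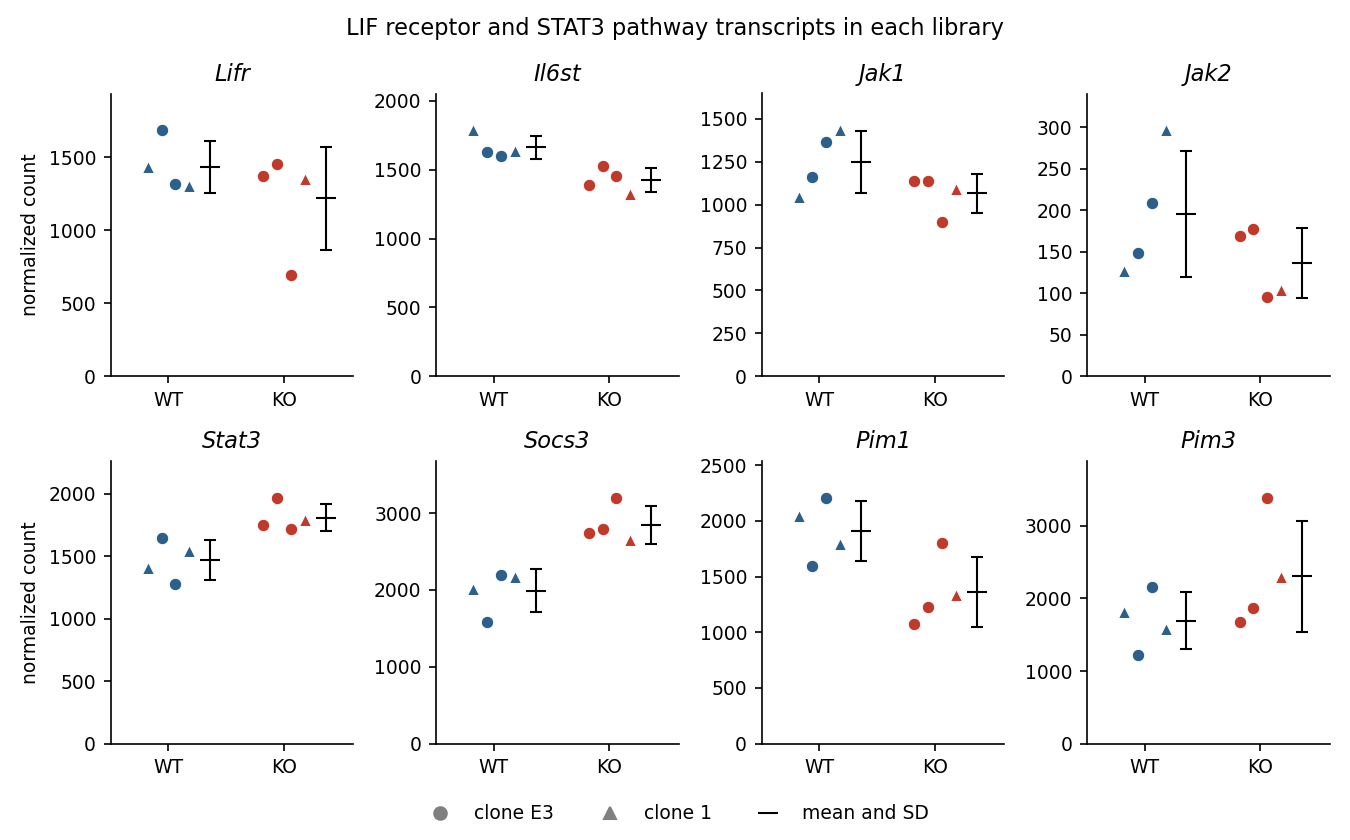
Normalized counts (y axes from 0) of the 8 transcripts in the 4 WT (blue) and 4 KO (red) libraries, in order of replicate number, with circles for clone E3, triangles for clone 1 and black bars for the mean and SD of each group. KO and WT libraries did not overlap for Il6st, Stat3 and Socs3, and KO replicate 3 lay apart for Lifr at 696.

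Across the 8 members, 3 had an unadjusted p under 0.05, with Stat3 and Socs3 higher and Pim1 lower in KO cells. Among all transcripts 9.09% had such a p, 4.62% higher and 4.46% lower. None of the members passed the study's criterion of p under 0.05 with a fold change of at least 1.5, which 4.25% of all transcripts passed. After adjustment over all transcripts 0 members had an adjusted limma p under 0.05, as had 0% of all transcripts. Member fold changes ran from -0.52 to 0.53 on the log2 scale with a median of -0.23, beside a median of 0.00 over all transcripts. KO and WT libraries did not overlap in 3 of 8 members, Il6st, Stat3 and Socs3, compared with 10.1% of all transcripts.

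The receptor chains were examined first. Lifr lies on chromosome 15 at 7090614 to 7197489 on the plus strand (GRCm38, the assembly behind mm10, as all positions here) and has 19 exons in the transcript used. The KO libraries held 1372, 1453, 696 and 1352 normalized counts and the WT libraries 1432, 1685, 1318 and 1303, in order of replicate number here and below. The groups overlapped, and KO replicate 3 lay far below the other 7 libraries. The fold change was -0.27 ± 0.27 (SE) on the log2 scale, with a 95% interval of -0.90 to 0.35 and an adjusted limma p of 0.754. Without KO replicate 3 the difference was -0.05, and with the length and GC trend removed it was -0.02. The transcripts whose pattern over the 8 libraries was closest to that of Lifr, among 11089 with a mean of at least 50, were Thoc2, Usp8 and Atad2, with Pearson correlations of log2 counts of 0.997, 0.995 and 0.995. These points share the low values of KO replicate 3, and the 3 transcripts are 7622, 4154 and 5684 bases long.

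Il6st, on chromosome 13 at 112464070 to 112510086 on the plus strand, is the longest member after Lifr at 8678 bases. Its counts were 1387, 1528, 1455 and 1323 in KO and 1786, 1626, 1597 and 1638 in WT. No KO library reached the lowest WT library, and the spread within each group was small, at 6.22% of the mean in KO and 5.08% in WT. KO cells held 1423 ± 88.5 and WT cells 1662 ± 84.4 normalized counts (SD, n = 4), a log2 difference of -0.23 ± 0.11 (SE) with an interval of -0.48 to 0.03. An exact two-sided permutation test, which took no account of clone or day, gave p = 0.0286, the smallest that 4 against 4 libraries allow. The limma fit gave an unadjusted p of 0.0744 and an adjusted p of 0.586. The study's own kind of model, linear on untransformed counts, gave Il6st an unadjusted p of 0.0184 and had 3 of 8 members under 0.05, Il6st, Stat3 and Socs3, beside 9.85% of all transcripts. With the length and GC trend removed the groups of Il6st overlapped, at 1348 to 1659 in KO and 1454 to 1717 in WT, and the log2 difference was -0.04. With that trend removed 9.33% of transcripts had groups that did not overlap.

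The kinases came next. Jak1 is on chromosome 4 at 101152367 to 101265282 on the minus strand. It read 1136, 1141, 897 and 1090 in KO and 1043, 1161, 1364 and 1434 in WT, so that the groups overlapped, with KO replicate 3 lowest and WT replicates 3 and 4 highest. The log2 difference was -0.23 ± 0.16 (SE, interval -0.60 to 0.14). Jak2, on chromosome 19 at 29251828 to 29313080 on the plus strand, was the least abundant member and read 169, 177, 95.7 and 103 in KO and 127, 148, 209 and 296 in WT. In both groups its spread was wide, at 31.3% of the mean in KO and 38.9% in WT, and the difference of -0.52 ± 0.35 had an interval from -1.33 to 0.29 and was -0.30 without WT replicate 4 and -0.31 without KO replicate 4. The same-day log2 differences of Jak2 were 0.25, -1.12 and -1.51 on days 3, 4 and 5, and 0.33, -1.57 and -1.23 with the clone correction undone. Each day holds 1 KO and 1 WT library, and a dependence on day was not tested. Adjusted limma p-values were 0.681 for Jak1 and 0.670 for Jak2.

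Stat3, the transcription factor of the pathway, is on chromosome 11 at 100885098 to 100939540 on the minus strand. Its counts were 1753, 1967, 1720 and 1792 in KO and 1409, 1646, 1274 and 1543 in WT. Each KO library was above each WT library, with KO replicate 3 and WT replicate 2 closest to each other. KO cells held 1808 ± 110 and WT cells 1468 ± 161 normalized counts (SD, n = 4), a 1.24-fold difference with an interval of 1.01 to 1.52. The log2 difference was 0.31 ± 0.13 (SE) and the adjusted limma p was 0.543. On days 3, 4 and 5 the same-day differences were 0.26, 0.43 and 0.22. With the length and GC trend removed the groups of Stat3 overlapped, at 1584 to 2034 in KO and 1165 to 1684 in WT, and the log2 difference was 0.37. With the clone correction undone the groups of Stat3 overlapped and those of Il6st and Socs3 did not, beside 6.82% of transcripts without overlap, and for Stat3 the exact permutation p was 0.0571 in place of 0.0286. The unadjusted limma p was 0.0458, and it went above 0.05 when any one library other than KO replicate 3 or WT replicate 2 was left out, reaching 0.163 without WT replicate 3. Stat3 and Stat5a, a neighbouring member of its family on the other strand, overlap by 72 exonic bases, and the library kit did not mark strand.

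Socs3, the feedback inhibitor, had an unadjusted p under 0.05 in 20 of 21 alternative fits, more than any other member. These fits draw on the same libraries, so the count is not repeated evidence. Socs3 is on chromosome 11 at 117966079 to 117970047 on the minus strand, in 2 exons. Its counts were 2743, 2795, 3199 and 2647 in KO and 2013, 1589, 2194 and 2168 in WT. The groups were apart in the deposited values and with the clone correction undone, when KO libraries held 2426 to 3420 and WT libraries 1791 to 2416. KO cells held 2846 ± 243 and WT cells 1991 ± 280 normalized counts (SD, n = 4), a 1.45-fold difference with an interval of 1.13 to 1.84. The log2 difference was 0.53 ± 0.15 (SE), the exact permutation p was 0.0286 and the limma p was 0.00881 unadjusted and 0.452 adjusted. The same-day differences were 0.81, 0.54 and 0.29 on days 3, 4 and 5. Within clone E3 the difference was 0.64 and within clone 1, which has 1 KO library, 0.34.

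With the length and GC trend removed, KO libraries of Socs3 held 2477 to 3151 and WT libraries 1817 to 2258 normalized counts, still without overlap, and the log2 difference was 0.41 ± 0.13 (SE). The 3 transcripts most correlated with Socs3 over the 8 libraries were Arhgap8, Rangrf and Dnttip1, with Pearson correlations of 0.985, 0.982 and 0.979. They are short transcripts of 1544, 820 and 1664 bases, of lower abundance than Socs3, at 216 ± 37.7, 297 ± 17.2 and 269 ± 14.7 normalized counts in KO and 135 ± 28.3, 254 ± 21.8 and 223 ± 21.3 in WT (SD, n = 4). Higher means in KO follow from their being the closest of 11089 transcripts to a member whose KO libraries all lay above WT.

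STAT dimers bind a palindrome, TTCNNNGAA, and windows of 300 bases around the RefSeq starts of the members were searched for it. The motif reads the same on both strands. It was found in 1 of the 10 windows of the 8 genes, that of Socs3, and in 8.30% of 32851 windows of all genes. The stretch is shown because it belongs to the member whose difference held under most alternatives. It lies at chr11:117969502-117969530 (GRCm38.p6, RefSeq, minus strand, 5′ to 3′), the first base of the motif 154 bases before a RefSeq start at 117969366, and capitals mark the motif. In GENCODE the coding transcript of Socs3 starts at 117969186, and the longer span of the gene given above comes from other transcripts, so that the stretch is upstream of the coding transcript and within the gene's span, in no annotated exon. The window that held it ended before the start of the coding transcript, so the bases just upstream of that transcript lay outside this window.
Socs3 upstream motif: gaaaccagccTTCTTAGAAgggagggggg
A match of these letters is a description of the window, and binding was not measured.

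Of the target kinases, Pim1 was lower in KO cells at an unadjusted p under 0.05, and Pim3 was not called over the 8 libraries. Pim1 is on chromosome 17 at 29490753 to 29496112 and Pim3 on chromosome 15 at 88862186 to 88865726, both on the plus strand and with 6 exons. Pim1 read 1071, 1223, 1800 and 1335 in KO and 2047, 1591, 2206 and 1795 in WT. The groups overlapped through KO replicate 3, which stood above WT replicates 2 and 4. The log2 difference was -0.50 ± 0.20 (SE), a fold change of 0.706 with an interval of 0.507 to 0.982, and the adjusted limma p was 0.533. The unadjusted p was 0.0411. It stayed under 0.05 without KO replicate 3 or WT replicate 2 and went above it without any other single library, up to 0.146 without WT replicate 3. With the length and GC trend removed the groups of Pim1 separated, at 1155 to 1492 in KO and 1749 to 2144 in WT, with a log2 difference of -0.58 ± 0.13 and an unadjusted p of 0.0026. Pim1 overlaps 488 exonic bases of Gm26885, annotated on the other strand.

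Pim3 read 1678, 1862, 3383 and 2288 in KO and 1814, 1214, 2152 and 1582 in WT. Its groups overlapped, and KO replicate 3 was highest of all. The log2 difference over the 8 libraries was 0.44 ± 0.28 (SE, interval -0.23 to 1.10), with an adjusted limma p of 0.661. It was 0.22 without WT replicate 2, 0.25 without KO replicate 3 and 0.26 with the length and GC trend removed. Libraries of the same day differed by 0.62, 0.65 and 0.53 on days 3, 4 and 5. With day as a replicate block over these 6 libraries the difference was 0.60 ± 0.09 with an unadjusted p of 0.00268, and Pim3 alone of the members passed the 1.5-fold criterion, which 7.49% of all transcripts then did. In that paired fit 4 of 8 members had an unadjusted p under 0.05, Stat3, Socs3, Pim1 and Pim3, beside 19.2% of all transcripts, and the adjusted limma p of Pim3 was 0.199. With voom weights on recovered reads and the same block, Jak1 and Jak2 joined these for 6 of 8, beside 24.5%. With the length and GC trend also removed, the paired difference of Pim3 was 0.29 with an unadjusted p of 0.0218.

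Since Pim1 and Pim3 differed in opposite directions between the groups, their ratio was taken, a measure chosen after the values were seen. The counts of Pim3 were 1.57, 1.52, 1.88 and 1.71 times those of Pim1 in the KO libraries and 0.886, 0.763, 0.975 and 0.882 times in the WT libraries. In these deposited values Pim3 thus exceeded Pim1 in every KO library and lay below it in every WT library. With the clone correction undone, WT replicate 3 had a ratio of 1.10, so Pim3 exceeded Pim1 there as well. The mean ratio was 1.67 ± 0.161 in KO and 0.877 ± 0.0870 in WT (SD, n = 4), a 1.91-fold difference or 0.93 on the log2 scale. Because the opposite directions of both genes prompted the measure, these values are a description and no test of it is given. The ratio differed 2.06-fold with the clone correction undone, and by 0.84 on the log2 scale with the length and GC trend removed, again without overlap. Pim2, the other kinase of the family, had 533 normalized counts in KO and 672 in WT, a log2 difference of -0.13 ± 0.48 (SE). No stretch of 50 bases was shared between the transcripts of any members, so reads of Pim1 and Pim3 could be told apart by sequence.

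**Figure D2:**
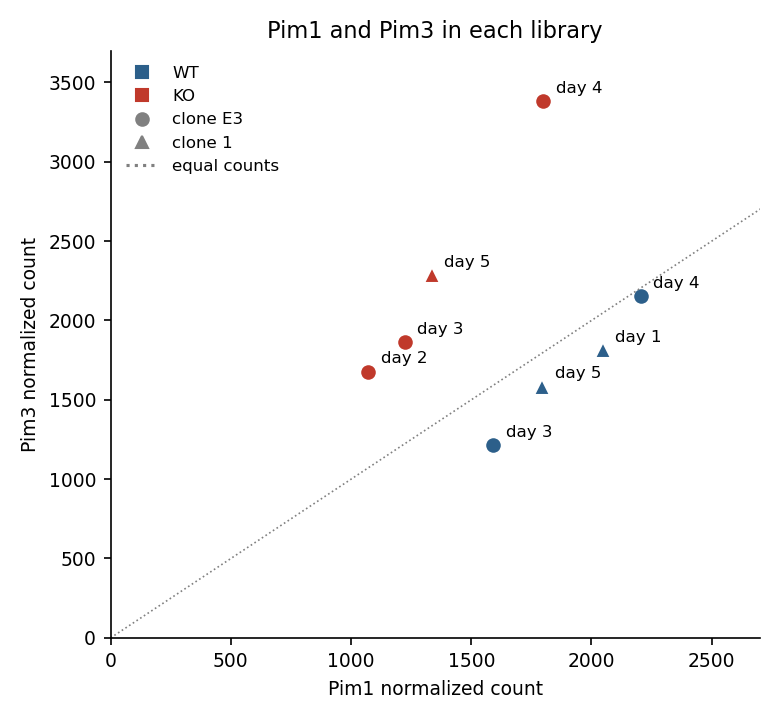
Normalized counts of Pim1 (x axis) and Pim3 (y axis) in each library, labelled by day, with WT in blue, KO in red, circles for clone E3 and triangles for clone 1. All 4 KO libraries lie above the dotted line of equal counts, with ratios of 1.52 to 1.88, and all 4 WT libraries below it, with 0.763 to 0.975. Values are as deposited, and with the clone correction undone WT replicate 3 had a ratio of 1.10.

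Both clones gave the same direction of difference in each of the 8 members. In clone E3 and clone 1 the log2 differences were 0.32 and 0.28 for Stat3, -0.49 and -0.52 for Pim1 and 0.44 and 0.43 for Pim3. For Il6st they were -0.15 and -0.37, and for Lifr -0.42 and -0.01. The interaction of genotype and clone had an unadjusted limma p under 0.05 in 0 of 8 members, beside 2.59% of all transcripts, with a lowest value of 0.386 for Il6st. This comparison rests on the 1 KO library of clone 1.

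**Figure D3:**
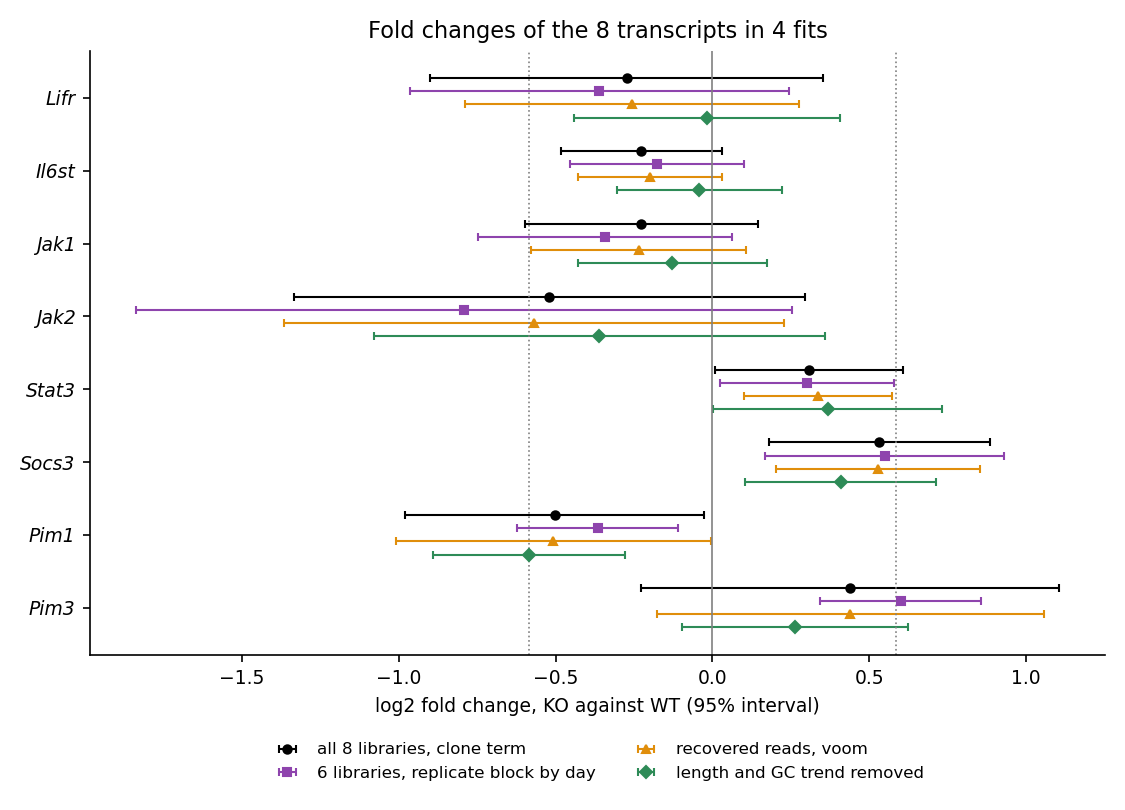
Log2 fold changes of KO against WT with 95% intervals (x axis) for the 8 transcripts (y axis) in the fit over 8 libraries, the fit with a replicate block by day over 6 libraries, the fit of recovered reads with voom and the fit with the length and GC trend removed. Dotted lines mark a 1.5-fold change. Intervals of Stat3, Socs3 and Pim1 leave out 0 in all 4 fits, that of Pim3 in the fit by day, and those of Lifr, Il6st, Jak1 and Jak2 include 0 in each.

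**Figure D4:**
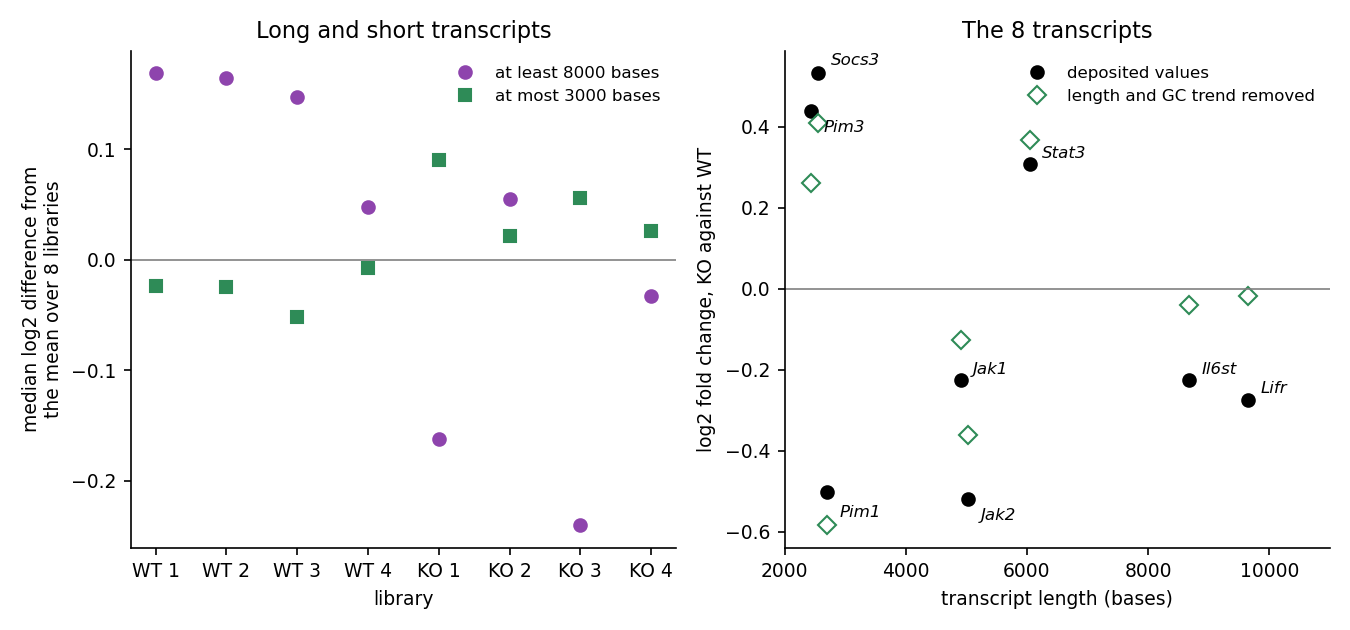
Left, the median log2 difference from the mean over 8 libraries for transcripts of at least 8000 bases (565) and at most 3000 bases (4979) in each library. Right, log2 fold changes of the 8 transcripts against their length in bases, before and after a length and GC trend was removed per library. Long transcripts were lowest in KO replicate 3 at -0.24, and removal of the trend moved Il6st from -0.23 to -0.04 and Lifr from -0.27 to -0.02.

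The other genes of the pathway were taken from a list of 48, of which 44 were in the table. The ligands Il6, Clcf1 and Il11 and the receptor Osmr had no row. Of the 44, 3 were higher and 0 lower in KO cells at an unadjusted p under 0.05, beside 4.62% and 4.46% of all transcripts, and 1 passed the 1.5-fold criterion, beside 4.25%. The median log2 difference of the list was 0.11 against 0.00 for all transcripts, with 29 of 44 above 0 beside 6774 of 13558. All 3 genes belonged to the 12 genes listed as responsive to LIF and STAT3, which had a median of 0.48. Of these 12, 10 were above 0, and the 2 below 0 were Tfcp2l1 at -0.14 ± 0.17 (SE) and Pramel7 at -1.21 ± 0.75. The list was chosen with earlier results of these data known, and the study itself names Klf5 and Gbx2 as changed. The place of the called genes among the responsive ones is therefore a description. Of 4 ligands, 4 receptors, 2 kinases, 6 STATs, 7 SOCS proteins, 8 PIAS proteins and phosphatases and Pim2, 0 had an unadjusted p under 0.05. The other SOCS transcripts had a median difference of 0.01 and ran from -0.27 to 0.26, while Socs3 stood at 0.53.

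Gbx2, a homeobox factor that supports self-renewal downstream of Stat3, was the gene that passed the criterion. It read 631, 1001, 684 and 1059 normalized counts in KO and 210, 667, 363 and 389 in WT, with an overlap between KO replicate 1 and WT replicate 2. Its log2 difference was 1.07 ± 0.37 (SE) and its adjusted limma p 0.486. With the length and GC trend removed it was 0.92 with an unadjusted p of 0.056, so that 0 of the 44 passed the criterion, and without KO replicate 4 it was 0.62. Klf5, a zinc finger factor of the naive state, read 751, 1073, 1110 and 1117 in KO and 747, 831, 691 and 567 in WT, where KO replicate 1 fell within the WT range, and its difference was 0.50 ± 0.19. Bcl3, an atypical IκB protein, read 321, 451, 546 and 405 in KO and 313, 285, 285 and 309 in WT without overlap, a difference of 0.52 ± 0.18. Each of these 3 had an unadjusted p above 0.05 when single libraries were left out: Gbx2 without KO replicate 4 (0.166) or WT replicate 3 (0.0729), Bcl3 without replicate 2 of either group (0.0555 for KO, 0.0669 for WT) or WT replicate 3 (0.0671), and Klf5 without KO replicates 2, 3 or 4 or WT replicates 3 or 4 (0.0685 to 0.203). With day as a replicate block 10 of the 44 were higher and 3 lower at an unadjusted p under 0.05, when 19.2% of all transcripts were called in either direction.

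**Figure D5:**
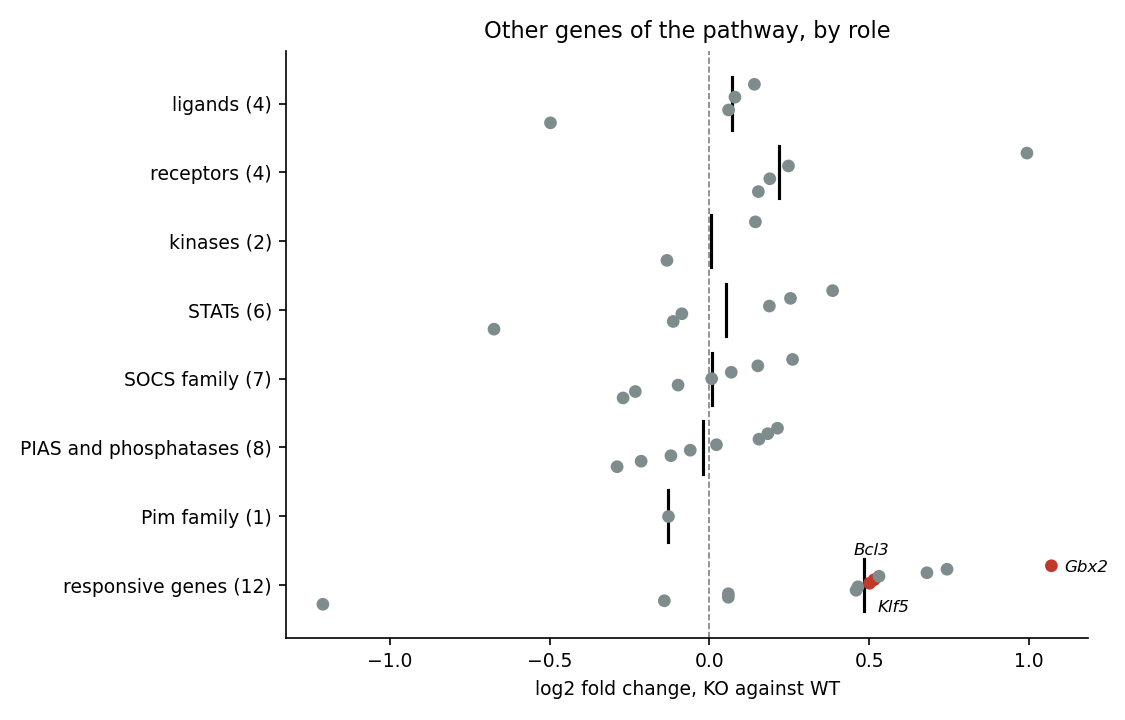
Log2 fold changes of KO against WT (x axis) for 44 other genes of the pathway, grouped by role with the number measured (y axis). Points are genes, red with an unadjusted limma p under 0.05, black bars are group medians and the dashed line is the median of all transcripts. The 12 responsive genes have a median of 0.48 and include Gbx2, Bcl3 and Klf5, and the medians of the other roles lie between -0.13 and 0.22.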

How the data were processed

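RNA of 8 mES cell libraries (4 KO, 4 WT, grouped by title) was sequenced by the authors in paired-end mode from a poly-A selecting kit that does not mark strand. The deposited values are a normalized signal: the authors called bases with CASAVA 1.8, aligned reads to mm10 with TopHat2 and Bowtie2 2.2.1, counted them per RefSeq transcript in Partek 6.6, normalized with DESeq2, applied a batch correction, set values under 1 to 1 and removed transcripts with a low mean, without pooling libraries. That the correction was an additive shift between the 2 clones was inferred here from the read recovery below and is not stated by the authors. Values are thus not counts and no count model was the main test.

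Values were analysed as log2(value + 1) with limma 3.58.1 (R 4.3.3), with genotype and clone as factors and Benjamini-Hochberg adjustment over all 13558 transcripts. Single members were compared by an exact two-sided permutation test over 70 assignments, free of clone and day, though the libraries differ in both. Whole reads were recovered for 13293 transcripts (98.0%) by undoing the clone correction. The remainder had values at the floor (208) or more than 1 solution (57). The read recovery and the limma fit were tested on simulated data. Reads and normalized values give counting precision only. Transcript lengths and GC content came from GENCODE M21, with a match for 12853 of 13558 transcripts, and promoter windows from RefSeq.

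The day label pairs libraries of days 3, 4 and 5, so a replicate block by day over 6 libraries was fitted as well. Deviations from group means correlated within the 3 same-day pairs at 0.42, 0.54 and -0.23 in the deposited values. With the correction undone they correlated at 0.56, 0.65 and 0.50. The medians for pairs of different days were 0.05 and -0.19. Same-day pairs also share a clone, so with the correction undone likeness by day and by clone cannot be told apart. The other alternatives were a pseudocount of 10, a mean of at least 50, untransformed values, no clone term, the clone correction undone, voom, each library left out and, chosen after seeing the data, a cubic trend on length and GC removed per library (alone or with the block) and the correction undone with the block. The text names all 8 members, Trim71, listed pathway genes with an unadjusted p under 0.05 or absent from the table, and the 3 transcripts most correlated with Lifr and with Socs3. Other genes named (Pim2, Lif, Osm, Tfcp2l1, single cell type markers, and pathway genes called with the block) were chosen after their values were seen. Members and lists were chosen with earlier results of these data known.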

Additional observations from a re-analysis of the deposited data

Results flagged for a closer look

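In 22 sets of 4 libraries (8 members and 3 other pathway genes in each genotype), the lowest or highest library was compared with the others by the share of the range that separates it from its neighbour, and 2 exceeded Dixon's 95% critical value. Chance alone flags about 1 in 20 such sets. Lifr in KO replicate 3, at 696 normalized counts, was separated from the next KO library at 1352 by 0.867 of the range, and by 0.868 with the clone correction undone. The same library had the lowest median for transcripts of at least 8000 bases, and the part of this in the value of Lifr was not tested beyond the fit without the length and GC trend. Klf5 in KO replicate 1, at 751 normalized counts, was separated from the next at 1073 by 0.880 of the range, and by 0.876 with the correction undone.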

How the results depend on the processing

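Over 21 alternative fits every member kept its direction, except Il6st with the length and GC trend removed and the replicate block by day, where its log2 difference was 7.25e-05. An unadjusted p under 0.05 was found in 20 of 21 fits for Socs3, where the exception was the same fit (0.0553), in 14 for Stat3, 13 for Pim1, 4 for Pim3, 2 for Il6st, 1 each for Jak1 and Jak2 and 0 for Lifr. No member had an adjusted p under 0.05 in any of them, with 0.058 for Pim3 as the lowest (voom with the block). Members past the 1.5-fold criterion (0) were 1 with the replicate block by day (Pim3), 1 with the block and the clone correction undone (Pim3), 2 with voom and the block (Jak2 and Pim3) and 1 without a clone term on values with the correction undone (Pim1). Without single replicates they were 0 to 1, Pim1 without KO replicate 3 or WT replicate 2 and Socs3 without KO replicate 4 or WT replicate 3. Members with an unadjusted p under 0.05 (3) were 1 over days 3 to 5 without the block, 6 with voom and the block, and 1 to 3 without single replicates. Other pathway genes with such a p (3) were 13 with the paired fit by day, 14 with the correction undone as well, 18 with voom and the block, 7 with voom alone, 7 with the trend removed and the block, 6 without a clone term, and 5 with the correction undone, with or without a clone term. Without single replicates they were 1 to 6, higher in KO except for the 1 without WT replicate 3 (Osm). Among all 13558 transcripts such a p was held by 1232 in the main fit, 2601 with the block and 1898 without a clone term. It was held by 907 over days 3 to 5 without the block and 442 to 1444 with a single library left out. Of 13293 with recovered reads, it was 2516 with the block and correction undone, 3252 with voom and the block, and 1235 with voom. With the correction undone it was 1195 with and 1423 without a clone term, and with the trend removed and the block 2055 of 12853. All transcripts past the criterion (576) were 1015 with the block, 983 with the correction undone as well, 1039 with voom and the block, 382 on untransformed values, 315 among the fewer transcripts whose mean reached 50, and 260 (without KO replicate 4) to 835 (without WT replicate 3) without single replicates. Why the counts moved was not tested, the filter aside. Over the libraries of days 3 to 5, the fit without the block called Socs3 alone, and the block added Stat3, Pim1 and Pim3. With the trend removed, the fit by day called Stat3, Pim1 and Pim3, and that over 8 libraries Stat3, Socs3 and Pim1. Beyond these, 8 libraries limit small differences: the interval of Lifr reached from -0.90 to 0.35 and that of Jak2 from -1.33 to 0.29. Clone 1 has 1 KO library.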

Other observations

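With day as a replicate block, 13 of the 44 other pathway genes had an unadjusted limma p under 0.05, beside 19.2% of all transcripts. Those higher in KO included Bcl3, Cntfr, Gbx2, Junb, Klf4, Klf5, Nr0b1, Pias4 and Stat5a, and those lower were Pramel7, Ptpn2 and Stat4. Of the 10 not called without the block, Klf4 and Nr0b1, both factors of the mES cell state, had the smallest p-values and paired log2 differences of 0.73 and 0.52, against 0.53 ± 0.40 and 0.46 ± 0.21 (SE) over 8 libraries. Cntfr, the receptor for ciliary neurotrophic factor, which signals through Lifr and gp130, ran from 91.6 to 190 normalized counts in KO and from 25.1 to 111 in WT, with a log2 difference of 0.99 ± 0.48 (SE) over 8 libraries and 0.84 with the block. Pramel7 was near the floor, at 1.94 to 28.5 normalized counts in KO. The transcript of the ligand itself, Lif, had 272 normalized counts in KO and 256 in WT, a log2 difference of 0.06 ± 0.27.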
